A study of Mus musculus with 6 samples.

Results

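A set of 10 genes that organise the actin cytoskeleton during cell movement, each reported elsewhere as a target of the miR-200 family, were followed in mouse mammary carcinoma cells in which miR-200c was switched on. They were Fhod1, Ppm1f, Wasf3, Wipf1, Cfl2, Msn, Marcks, Crkl, Rhoa and Sh3pxd2a, 10 of the 43548 gene identifiers listed. The rule used no level measured in these libraries, but the genes were chosen with earlier results of these data known. Of the 10, 8 were above 0 in all 6 libraries and passed the filter on low values, and these 8 were all lower when miR-200c was induced. Wasf3 and Wipf1 were listed at or near 0 in both groups.

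The cells were Met-1 TripZ-200c, a single clone of the Met-1 line, which came from a late-stage mammary tumor of an MMTV-PyMT mouse on the FVB/NJ background. The clone carries the lentiviral vector pTripZ-RFP with the precursor of miR-200c under doxycycline (Dox) control, and it was sorted for an intermediate red fluorescence and no leak. mRNA was sequenced from 3 libraries of cells given the water vehicle (no Dox) and from 3 libraries of the same clone given 1 µg/mL Dox, both for 48 h, so every library carries the vector. Cells with an empty vector were not analysed here, and an effect of miR-200c and an effect of Dox itself cannot be told apart. The design text says the cells were plated in triplicate, while the labels call the replicates a biological triplicate. They were treated here as plates of 1 clone, so the p-values measure the spread between plates, which may be technical. The paper's methods give 48 h for the sequenced cells, while a figure legend ties them to samples treated for longer.

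A microRNA is a short RNA that guides an Argonaute protein to mRNAs, mostly through pairing of its seed with the 3′ untranslated region (UTR), and the mRNA is then translated less and degraded faster. The miR-200 family is known for holding cells in an epithelial state by repressing the transcription factors Zeb1 and Zeb2. Crawling cells push their front forward with branched and bundled actin, turn old filaments over, tie filaments to the membrane and to adhesions, and contract, and the 10 genes take part in these steps.

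The seed is the part of miR-200c that its targets share, so the mature sequence is given first, from RefSeq on GRCm38, with the seed (bases 2 to 8 from the 5′ end) in capitals. miR-200c lies on the minus strand at chr6:124718324-124718346. miR-141, its neighbour in the genome, lies at chr6:124717917-124717938 on the same strand, is not in the vector, and differs from it in the seed by U4C, with positions counted from the 5′ end.
mmu-miR-200c-3p: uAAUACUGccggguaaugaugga
mmu-miR-141-3p: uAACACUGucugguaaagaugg

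The DNA letters that pair with the miR-200c seed are CAGTATT. A copy of these 7 letters on the mRNA strand is called a match here. It is a description of the sequence and not a measured binding site. The windows below end 1 base after the match and show, for the 8 expressed genes, every match in the longest 3′ UTR annotated by GENCODE M21 on GRCm38. The match is in capitals, and a final a marks the form that targeting is known to favour.
Fhod1, chr8:105329289-105329311, minus strand: cttatacccagaaacCAGTATTg
Fhod1, chr8:105329277-105329299, minus strand: aaccagtattgtgaaCAGTATTa
Ppm1f, chr16:16924679-16924701, plus strand: ggtctaatccagaatCAGTATTc
Ppm1f, chr16:16924815-16924837, plus strand: tcgtggagacatttgCAGTATTa
Cfl2, chr12:54860971-54860993, minus strand: atataagaagcctgtCAGTATTg
Cfl2, chr12:54860748-54860770, minus strand: atgggagacttgtttCAGTATTa
Msn, chrX:96167901-96167923, plus strand: tcttttaatttttacCAGTATTa
Msn, chrX:96168092-96168114, plus strand: tatgtaagaagatttCAGTATTa
Marcks, chr10:37135803-37135825, minus strand: ttttttttttggcatCAGTATTa
Sh3pxd2a, chr19:47265269-47265291, minus strand: ttttcttctgctggaCAGTATTa
Crkl, chr16:17487245-17487267, plus strand: gtgctataaaattaaCAGTATTa
Rhoa, chr9:108336933-108336955, plus strand: aagtcatcttgctacCAGTATTt

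Every one of the 10 genes held at least 1 match, 17 in all, and 11 of the 17 were followed by A. Among the 8 expressed genes, Rhoa was the one without a match followed by A. Of the 10793 tested genes with an annotated 3′ UTR, 16.1% held a match and 4.01% held one followed by A. The genes were listed as miR-200 targets, and such lists are partly drawn up from seed matches, so this difference is partly built into the choice. The setting of the matches differed between the genes. In Fhod1, the pair of matches lay at 101 and 113 bases into a 3′ UTR of only 234 bases, and 0.443% of genes with a UTR of like length (0.8 to 1.25 times its own) held as many. In Sh3pxd2a, the single match lay at 1711 bases into a UTR of 6813 bases, and 51.0% of genes with a UTR of like length held a match too. Rhoa carried its match early, at 127 bases into 1113. Crkl carried its match near the end, at 3465 bases into 3639.

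**Figure D1:**
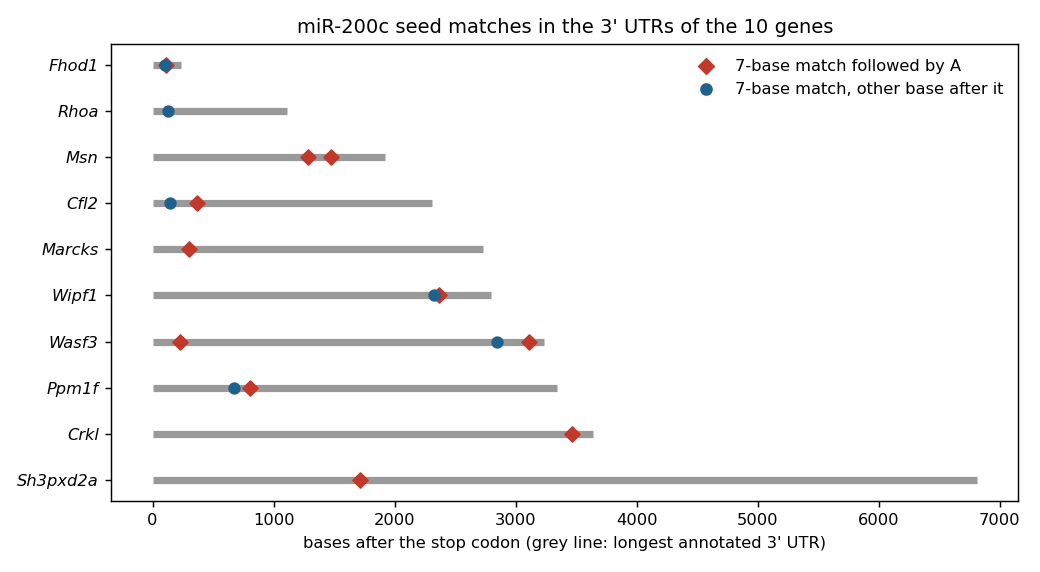
miR-200c seed matches along the longest annotated 3′ UTR of each of the 10 genes, with the x axis in bases after the stop codon. Grey lines are UTRs and marks are matches, drawn by whether A follows. The Fhod1 pair, at 101 and 113 bases, lies too close to be separated at this scale.

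Expression was deposited as FPKM (fragments corrected for transcript length and library size), so the depth in reads is unknown. Depth relative to the first library without Dox was estimated from the most frequent ratio of very low FPKM values. It came to 0.916 to 1.305 without Dox and 0.990 to 1.485 with Dox. The most frequent ratio was held by only 14 to 58 genes per library, so these estimates are rough. Between 16867 and 18012 genes were above 0 per library. The gene of miR-200c was listed at 0 in all 6 libraries, so it does not check the induction. Its established targets Zeb1 and Zeb2 were lower with Dox, with log2 fold changes of -0.98 and -1.81 in limma. Of 6 epithelial markers, Krt18 carried most of a summed level of 91.6 to 97.0 FPKM without Dox and 369 to 406 with Dox, while Krt5 was at 0. Of 7 leukocyte markers, 3 were at 0 in every library, and the summed level was 6.40 to 11.4 FPKM without Dox and 6.85 to 7.63 with Dox. Cd68 carried nearly all of that sum, while Ptprc, Csf1r and Itgam were at 0.222 FPKM or below in every library. The part of the epithelial markers' change in the results below was not tested.

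All 8 expressed genes passed limma at an adjusted p under 0.05 on log2(FPKM + 0.1), and all 8 were lower with Dox; 0 were higher. Among all 12879 genes tested, 7.97% were lower and 7.06% higher by the same rule. The median log2 fold change was -0.68 over the 8 genes and 0.00 over all genes tested. In each of the 8, the 3 libraries with Dox lay below the 3 without, a separation found in 17.6% of genes tested. The size of the change set the genes apart from each other. Fhod1, Ppm1f, Cfl2 and Msn were lower by at least 1.5-fold, which 1.79% of genes tested were, and Marcks, Sh3pxd2a, Crkl and Rhoa were lower by less. In bulk RNA, fewer cells that express a gene and less mRNA in each cell cannot be told apart.

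**Figure D2:**
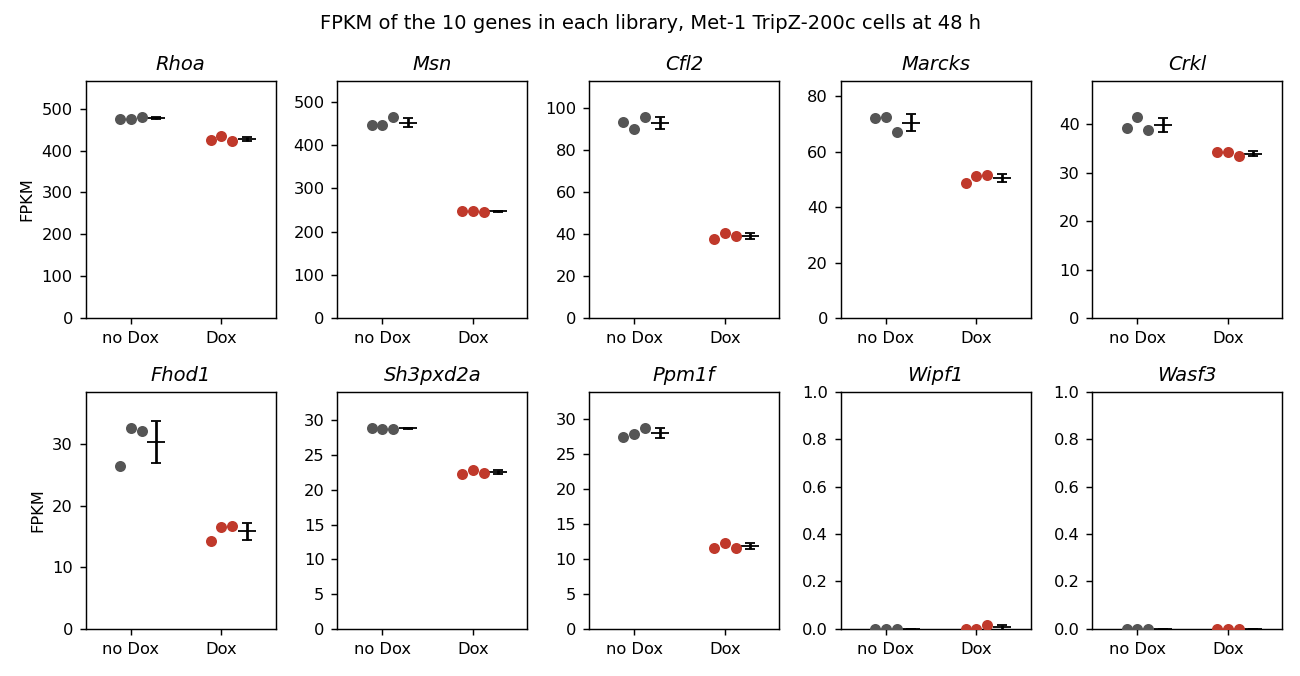
FPKM of each of the 10 genes in each library (points) with the group mean and SD (n = 3), each panel on its own linear y axis from 0. The groups do not overlap in the 8 expressed genes, and the gap is widest, relative to the level, in Cfl2 and Ppm1f, while Wasf3 and Wipf1 lie at or near 0.

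Fhod1 (ENSMUSG00000014778, chr8:105329163-105347953 on GRCm38) encodes a formin, one of the proteins that lengthen and bundle unbranched actin filaments, and acts on stress fibres. Its FPKM was 26.5, 32.6 and 32.1 without Dox and 14.3, 16.5 and 16.8 with Dox. The lowest library without Dox stood well above the highest with Dox, although replicate 1 was the lowest of each group and the spread was the largest among the 8 genes. The mean was 30.4 ± 3.41 without Dox and 15.9 ± 1.35 with Dox (SD, n = 3), which is 47.9% lower (log2 fold change -0.93, standard error 0.10, limma adjusted p = 0.00161). Fhod1 overlaps Tmem208 on the other strand over 6057 bases, and whether counting used the strand is not given in the sources used here. Tmem208 itself had a log2 fold change of 0.00 (limma adjusted p = 0.990).

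Ppm1f (ENSMUSG00000026181, chr16:16896469-16927364) encodes a protein phosphatase that removes phosphate from PAK and CaM kinases and binds the PIX exchange factors. The values were 27.3, 27.8 and 28.7 FPKM without Dox and 11.6, 12.3 and 11.6 FPKM with Dox. Replicates lay close together on both sides of a wide gap. From 27.9 ± 0.696 to 11.8 ± 0.403 FPKM (SD, n = 3), Ppm1f was 57.6% lower (log2 fold change -1.23, standard error 0.06, limma adjusted p = 5.03e-05), and only 84 of the 12879 genes tested had a lower log2 fold change.

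Cfl2 (ENSMUSG00000062929, chr12:54858809-54862877) encodes cofilin 2, which severs and disassembles old actin filaments and is best known from muscle. It stood at 93.4, 90.1 and 95.8 FPKM without Dox against 37.9, 40.8 and 39.3 FPKM with Dox. Every library with Dox was below even the lowest library without Dox by far more than the replicates differed. Cfl2 went from 93.1 ± 2.87 to 39.3 ± 1.47 FPKM (SD, n = 3), 57.8% lower (log2 fold change -1.24, standard error 0.05, limma adjusted p = 2.04e-05). It had the lowest log2 fold change of the 8 genes, with 83 of all genes tested below it.

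Msn (ENSMUSG00000031207, chrX:96096042-96168552) encodes moesin, an ERM protein that ties actin filaments to the plasma membrane. At 445, 446 and 464 FPKM without Dox and 248, 247 and 244 FPKM with Dox, it was among the 2 most abundant of the genes per length, beside Rhoa. The libraries with Dox were nearly identical to each other and far below the others. The mean went from 452 ± 10.6 to 246 ± 1.95 FPKM (SD, n = 3), 45.5% lower (log2 fold change -0.87, standard error 0.03, limma adjusted p = 1.11e-05), the lowest adjusted p among the 8.

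Marcks (ENSMUSG00000069662, chr10:37133375-37138920) encodes a substrate of protein kinase C that links actin to the membrane and holds phosphoinositides. It had 72.2, 72.5 and 67.1 FPKM without Dox and 48.8, 51.2 and 51.7 FPKM with Dox. One library without Dox was somewhat lower than its group, and still above all libraries with Dox. With means of 70.6 ± 3.01 and 50.6 ± 1.58 FPKM (SD, n = 3), Marcks was 28.4% lower (log2 fold change -0.48, standard error 0.05, limma adjusted p = 0.00113).

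Sh3pxd2a (ENSMUSG00000053617, chr19:47260174-47464401) encodes TKS5, a scaffold of invadopodia, the actin-rich protrusions that degrade matrix. Its values were 28.9, 28.8 and 28.8 FPKM without Dox and 22.3, 22.9 and 22.4 FPKM with Dox. Without Dox it was the most even of the 8 genes, with a coefficient of variation of 0.228%, and the groups stood clearly apart. The mean of 28.8 ± 0.0655 FPKM became 22.5 ± 0.322 FPKM (SD, n = 3), 21.8% lower (log2 fold change -0.35, standard error 0.05, limma adjusted p = 0.00367).

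Crkl (ENSMUSG00000006134, chr16:17451987-17487434) encodes an SH2 and SH3 adaptor that carries signals from focal adhesions to Rac and Rap1 activators. Without Dox its FPKM was 39.1, 41.4 and 38.9, and with Dox 34.2, 34.3 and 33.3. The groups did not overlap, but the gap was small beside that of the genes above. Crkl was 14.7% lower, from 39.8 ± 1.41 to 33.9 ± 0.522 FPKM (SD, n = 3), with a log2 fold change of -0.23 (standard error 0.05, limma adjusted p = 0.0195). The call was lost in 4 of the 6 fits that left out a library. It passed no longer without replicate 2 of the no Dox group (adjusted p = 0.0627 from limma) or without replicate 1 (0.0532), 2 (0.0574) or 3 (0.0753) of the Dox group, at log2 fold changes of -0.24 to -0.20, and over all 15 alternatives the adjusted p was 0.0165 to 0.0753.

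Rhoa (ENSMUSG00000007815, chr9:108306129-108337934) encodes the GTPase that drives stress fibre assembly and contraction, in part through formins. It had 476, 474 and 479 FPKM without Dox and 426, 434 and 423 FPKM with Dox, so all 3 libraries with Dox were lower by a small and even step. The means were 477 ± 2.54 and 428 ± 5.77 FPKM (SD, n = 3), 10.3% lower (log2 fold change -0.16, standard error 0.02, limma adjusted p = 0.00665). Rhoa had the smallest change of the 8, and 2833 of the genes tested had a lower log2 fold change. Without the trend of variance on expression, the limma adjusted p was 0.0541, the highest of 15 alternatives, over which it began at 0.00372. Its transcript shares 26.7% of its length with the pseudogene Gm13578, so reads could be split between them. Gm13578 was listed at 10.2 ± 4.37 FPKM without Dox and 6.56 ± 1.98 with Dox (SD, n = 3), far below Rhoa. How shared reads were counted is not given in the sources used here, so the level of Rhoa stays somewhat uncertain. For each of the other 9 genes the shared part was at most 1.65%.

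Wasf3 (ENSMUSG00000029636, chr5:146384985-146473615) encodes WAVE3, which turns on branched actin assembly by the Arp complex downstream of Rac, and Wipf1 (ENSMUSG00000075284, chr2:73429610-73529734) encodes WIP, a partner that stabilises WASP proteins. Wasf3 was listed at 0 in all 6 libraries. Wipf1 was listed at 0 in 5 libraries and at 0.0182 FPKM in replicate 3 of the Dox group. Both hold seed matches, 3 in Wasf3 and 2 in Wipf1, but with no signal without Dox there was no level from which a decrease could be read. Their relatives Wasf1, Wasf2 and Wipf2 were measured. Wasf1 had 22.5 ± 1.00 FPKM without Dox and 23.3 ± 1.22 with Dox (SD, n = 3), and Wasf2 had 52.1, 46.5 and 49.6 FPKM in the libraries without Dox and 50.5, 50.9 and 48.5 in those with Dox. Neither passed the test (limma adjusted p = 0.669 and 0.861), and neither did Wipf2 (log2 fold change 0.21, adjusted p = 0.322). Wipf3 was listed at 0 throughout.

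The closest relatives of the 10 genes gave a comparison within each protein family. Of 15 relatives, 13 held no match in the longest 3′ UTR; Crk held 2 and Ppm1e held 1, none of them followed by A. Of the relatives, Ezr, which encodes ezrin, and Dstn, which encodes the cofilin relative destrin, were higher with Dox, Marcksl1 and Rhoc were lower, and no other passed. Ezr had 213 ± 3.69 FPKM without Dox and 306 ± 15.9 with Dox (SD, n = 3), a log2 fold change of 0.52 (standard error 0.04, limma adjusted p = 5.08e-04), while Msn was lower. Dstn had 159, 160.3 and 169 FPKM without Dox and 192, 212 and 197 FPKM with Dox (log2 fold change 0.29, standard error 0.05, limma adjusted p = 0.00800), while Cfl2 was lower. Cfl1, the main cofilin of non-muscle cells, had 1331 ± 4.13 and 1272 ± 24.1 FPKM (SD, n = 3). It did not pass (log2 fold change -0.07, limma adjusted p = 0.103). Cfl1 shares 27.1% of its transcript with other genes, most of it with Gm6180 (21.2%). Gm6180 was listed at 287.5 ± 4.61 FPKM without Dox and 274.5 ± 25.8 with Dox (SD, n = 3), so the level of Cfl1 is uncertain.

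**Figure D3:**
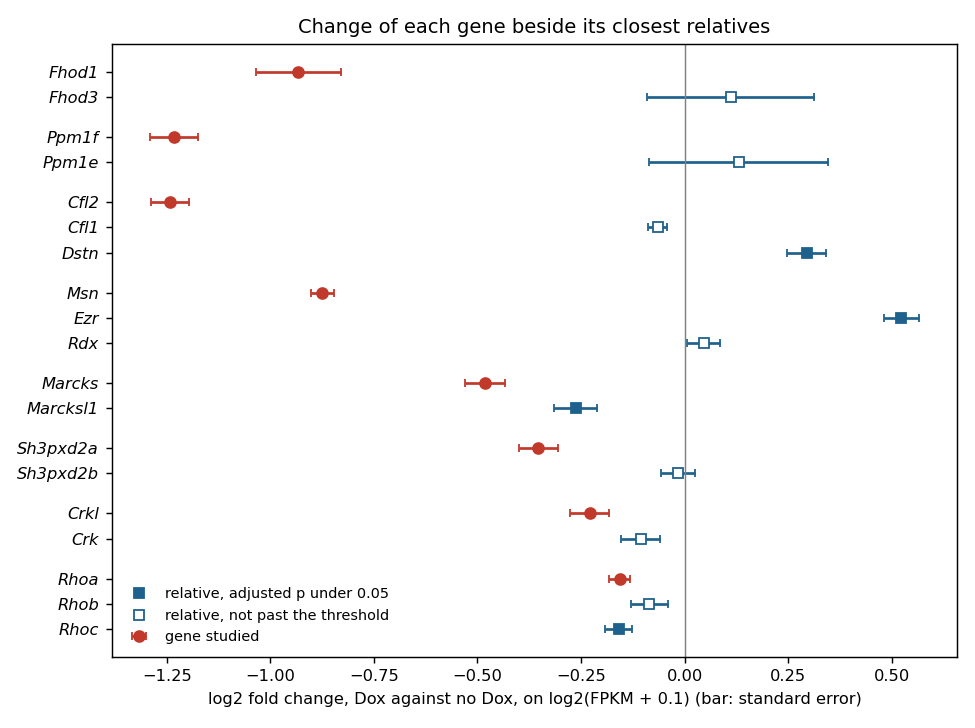
Log2 fold change between Dox and no Dox (x axis, on log2(FPKM + 0.1), bars standard error) of the 8 expressed genes (red circles) and their closest relatives (blue squares, filled where the limma adjusted p is under 0.05). Ezr and Dstn lie right of 0 while Msn and Cfl2 lie left of it, and Rhoc lies beside Rhoa.

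Marcksl1, the shorter relative of Marcks, was lower as well, from 129 ± 2.04 to 108 ± 7.13 FPKM (SD, n = 3; log2 fold change -0.26, limma adjusted p = 0.0174), though it did not pass without replicate 2 of the no Dox group (limma adjusted p = 0.0597; 0.0144 to 0.0737 over 15 alternatives). Rhoc, known for its part in invasion, changed as little as Rhoa, from 604 ± 20.1 to 541 ± 10.8 FPKM (SD, n = 3; log2 fold change -0.16, standard error 0.03, limma adjusted p = 0.0189). It no longer passed without replicate 1 of the no Dox group (limma adjusted p = 0.0506) or without replicate 1 (0.0525) or 3 (0.0740) of the Dox group, and the range over 15 alternatives was 0.0132 to 0.0851. Fhod3 (log2 fold change 0.11, limma adjusted p = 0.767), Ppm1e (0.13, 0.743), Rdx (0.05, 0.495), Rhob (-0.09, 0.267), Crk (-0.11, 0.193) and Sh3pxd2b (-0.02, 0.839) did not pass.

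Of the ERM genes, Msn had the highest mean FPKM without Dox and Ezr had the highest with Dox. Msn made up 57.7 ± 0.518% of the summed FPKM of Msn, Ezr and Rdx without Dox and 36.5 ± 0.646% with Dox (SD, n = 3), while the sum itself went from 783 to 675 FPKM. The share of Cfl2 in Cfl1, Cfl2 and Dstn went from 5.87 ± 0.170% to 2.60 ± 0.0359% (SD, n = 3), and the summed FPKM, mostly Cfl1, from 1587 to 1512. Cfl2 was thus a minor part of the cofilin mRNA in both groups. The exact shares are uncertain, because Cfl1 shares sequence with other genes.

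The share of Sh3pxd2a beside Sh3pxd2b was 35.4 ± 0.200% and 30.3 ± 0.820%, and that of Marcks beside Marcksl1 was 35.4 ± 0.822% and 32.0 ± 2.05% (SD, n = 3). Rhoa made up 39.4 ± 0.613% of Rhoa, Rhob and Rhoc without Dox and 39.2 ± 0.163% with Dox, values that lay within the spread of the replicates. Each of the 8 shares was compared by a two-sided exact permutation test, whose smallest possible p with 3 against 3 is 0.1 (0.133 after Benjamini-Hochberg adjustment over 8). Msn, Cfl2, Sh3pxd2a, Marcks, Ppm1f and Fhod1 reached that smallest p, Crkl had p = 0.2 and Rhoa p = 0.6 in the exact test, so none could pass the threshold in this design.

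**Figure D4:**
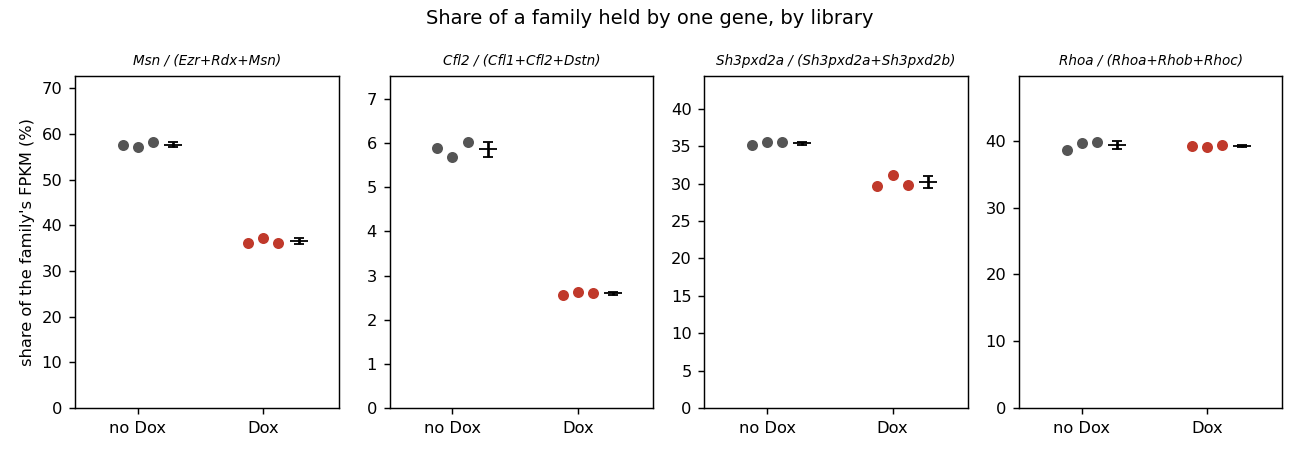
Share of a gene in the summed FPKM of its family (y axis, percent, from 0) in each library (points), with the group mean and SD (n = 3). The Msn share went from 57.7% to 36.5%, the Cfl2 share was small and lower with Dox, and the Rhoa share stayed at 39.4% and 39.2%.

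The other genes of these processes were read from 8 lists of actin and motility genes, with the 10 genes left out. Of 125 listed genes, 111 were tested, of which 18 were lower (16.2%) and 16 higher (14.4%) with Dox, beside 7.97% and 7.06% of all genes. The median log2 fold change over the 111 was -0.01. Genes of both directions were found in most lists. Genes beside Ppm1f and the PAK kinases were mostly lower among those that passed, 5 of 11 tested lower and 1 higher. Of the 5, Arhgef7 and Camk2g did not pass with any 1 library left out, which leaves 3 of these 5 in each of those 6 fits. Arhgef6, a PIX exchange factor, had a log2 fold change of -0.65, the PIX partner Git2 -0.41 and the kinase Camk2d -0.37, while the kinase Pak2 had 0.15. In the cofilin list, 4 of 13 tested were higher and 0 lower, among them the cofilin phosphatase Ssh3 (log2 fold change 0.57) and the cofilin kinase Tesk1 (0.32), which did not pass without replicate 1 or 2 of the Dox group (limma adjusted p = 0.0525 and 0.0545). The list of ERM and MARCKS genes had 4 of 9 higher and 1 lower. Besides Ezr these were Slc9a3r1, the ERM-binding scaffold (0.33), Stk10, an ERM kinase (0.29), and Nf2, the ERM-like protein merlin (0.27). Pak2 did not pass in 4 of the 6 fits that left out a library (limma adjusted p 0.0700 to 0.1004, those without replicate 1 or 2 of the no Dox group or 2 or 3 of the Dox group), Stk10 in 5 (up to 0.0657, all but that without replicate 3 of the no Dox group) and Nf2 in the 1 without replicate 3 of the Dox group (0.0561).

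Around Fhod1, 2 of 10 other formins tested were lower, Fmnl3 (log2 fold change -0.51) and Inf2 (-0.44), and 1 was higher, Diaph1 (0.18), which passed in only 1 of the 6 fits that left out a library, that without replicate 1 of the no Dox group (limma adjusted p 0.0654 to 0.0860 in the others). In the WASP, WAVE and Arp list, where Wasf3 and Wipf1 belong, 2 of 21 were lower, Cyfip1 (-0.14) and Brk1 (-0.13), and 1 was higher, Arpc1a (0.30). Cyfip1 did not pass with any 1 library left out (limma adjusted p 0.0756 to 0.139) and Brk1 passed only without replicate 2 of the Dox group, so 0 or 1 of the 2 passed in those 6 fits. Around Rhoa, 4 of 22 were lower, among them Rnd3 (-0.40), a small GTPase that loosens stress fibres, and Arhgdia (-0.23), an inhibitor that holds small GTPases in the cytosol, and 1 was higher, Rnd1 (0.48). In the list around Crkl and focal adhesions, 4 of 21 were lower and 4 higher. The integrin activators Tln2 (-0.81), Tln1 (-0.34) and Fermt2 (-0.29) were lower, and the kinase Src (0.90, from 84.3 to 157 FPKM) and Vcl, which encodes vinculin (0.26), were higher. Around Sh3pxd2a, 0 of 6 tested genes of invadopodia were lower and 1 was higher, Src again, which is on both lists. Values in parentheses after a gene in this paragraph are log2 fold changes of genes that passed limma with all libraries.

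Seed matches were counted in these neighbours too. Of the 111 genes, 25 (22.5%) held a match, 7 of them lower and 3 higher, with a median log2 fold change of -0.05. The 86 without a match had 11 lower and 13 higher, with a median of -0.01. The 7 lower genes with a match were Tln2, Git2, Fermt2, Arhgdia, Arhgef7, Camk2g and Brk1, and the 3 higher were Pak2, Nf2 and Stk10. A match was thus found in genes of both directions. Arhgef7 and Camk2g did not pass with any 1 library left out (limma adjusted p = 0.0508 to 0.110 and 0.0668 to 0.128), and Brk1 passed only without replicate 2 of the Dox group (0.0894 to 0.116 in the other 5 fits).

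Across all tested genes with a 3′ UTR, levels with Dox were lower the more matches the UTR held. The median log2 fold change was 0.01 in 9055 genes with 0 matches, -0.05 in 1410 with 1, -0.07 in 265 with 2 and -0.16 in 63 with 3 or more, and 7.32%, 16.5%, 17.4% and 33.3% of these genes were lower. UTR length moved with the classes, with medians of 1007, 2320, 3236 and 5044 bases, and its part in the difference was not tested. Where at least 1 match was followed by A (433 genes), 28.6% were lower, and where none was (1305 genes), 13.5% were. In the 1602 genes that held the miR-141 match but none for miR-200c, 6.49% were lower. Of the 1738 genes with any match, 82.7% were not lower at the threshold.

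The 8 expressed genes lay below the medians of these classes. Fhod1, Ppm1f, Cfl2 and Msn held 2 matches each and had log2 fold changes of -1.24 to -0.87, against a median of -0.07 for the 265 genes of that class. Marcks, Sh3pxd2a, Crkl and Rhoa held 1 match each and had -0.48 to -0.16, against a median of -0.05. These 2 ranges did not overlap, which is a description of 8 chosen genes and was not tested. Within the genes with 1 match, Rhoa, the one whose match is followed by t, had the smallest change. It had -0.16 (standard error 0.02), beside -0.23 (standard error 0.05) for Crkl, whose match is followed by A. A part of the base after the match was not tested.

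**Figure D5:**
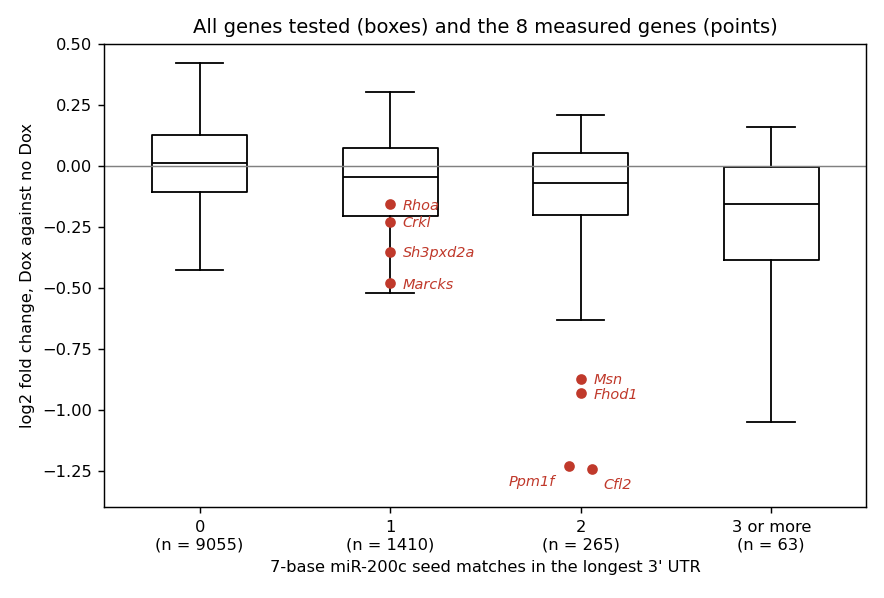
Log2 fold change (y axis, Dox against no Dox) of all tested genes with a 3′ UTR by the number of miR-200c seed matches (x axis), as boxes of the quartiles with the median and whiskers at the 5 and 95 percentiles, with the 8 expressed genes as labelled points. The 4 genes with 2 matches lie at -1.24 to -0.87, below the 4 genes with 1 match at -0.48 to -0.16.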

How the data were processed

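RNA libraries of Met-1 TripZ-200c cells (3 without and 3 with Dox) were made with the TruSeq Stranded RNA kit and sequenced as single reads. The authors mapped the reads with gSNAP and estimated expression with Cufflinks (version not given in the sources used here; the submitters' processing notes name GRCm38.p6), and the deposited values are FPKM per gene and library. The table also holds group means, fold scores, p-values and q-values of the authors' own comparison, which were not used. No column of per-sample values was left out. Of 43611 rows, 1 per gene identifier was kept, that with the highest mean. All 37 mitochondrial genes were at 0, so a 0 need not mean no expression.

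The 12879 genes whose mean reached 1 FPKM entered limma 3.58.1 (lmFit, eBayes with a trend; R 4.3.3) as log2(FPKM + 0.1), with Benjamini-Hochberg adjustment over all of them and a threshold of 0.05. On this scale, folds of low genes are understated. The fit was run on simulated data with planted changes larger than those of all the expressed genes but Ppm1f and Cfl2. That run therefore says nothing of how well smaller changes are found. The genes, lists and tests were chosen with earlier results of these data known. The text names the 10 genes, their closest relatives, checks of the induction, and up to 3 genes per list and direction among those that passed, largest change first, with Nf2, Arhgef7 and Camk2g named after their values were seen. Matches to the seed were counted in the longest 3′ UTR of GENCODE M21 (GRCm38); the FVB/NJ sequence was not used here. Shared transcript sequence was searched with BLAST 2.17.0, keeping alignments of 50 bases or more and 95% identity or more. Listed genes not found under their symbol were matched by Ensembl identifier.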

Additional observations from a re-analysis of the deposited data

How the results depend on the processing

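The 8 genes kept a negative log2 fold change under all 15 alternatives, and 114 of 120 values kept their side of the threshold. The 6 that did not were Crkl in 5 alternatives and Rhoa in 1 (no variance trend, limma adjusted p = 0.0541). The number lower stayed at 7 or 8 in each of these fits and in the omission of each library in turn (7 to 8), and was 4 with a minimum change of 1.5-fold. Of all genes tested, 1935 passed, 1069 to 1384 with a library left out, 452 with the 1.5-fold minimum and 770 at an adjusted p of 0.01. Of the other genes of the lists, 18 were lower and 16 higher; with a library left out these were 13 to 16 and 10 to 13, with the 1.5-fold minimum 2 and 1, and at an adjusted p of 0.01 11 and 8. Other pseudocounts, filters and scalings changed none of these counts by more than 1.5 times. All 10 genes held a match in any annotated 3′ UTR, and 9 held one followed by A.

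The groups share replicate numbers, but same-numbered libraries did not deviate together (r = 0.0287, 0.0359 and -0.00759 across genes), so the numbers were not taken as pairs. With the replicate block, 1337 genes passed, 7 of the 8 genes were lower (Crkl had limma adjusted p = 0.0531), and 14 and 12 of the listed genes were lower and higher.

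FPKM gave no read counts, so the precision set by depth is unknown, most of all for Wasf3 and Wipf1. Of 658 values of other named genes, 586 kept their side of the threshold and 72 lost it. A change of sign was counted only where a gene passed in the main fit or the alternative, and 0 were found. Genes that passed in neither could change sign. Examples are Ppm1e (log2 fold change -0.02 to 0.26 over the alternatives) and Wasf2 (-0.02 to 0.06). With 3 plates of 1 clone per group and no library of empty-vector cells, the changes describe this clone.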
